A study of Mus musculus with 8 samples.

Results

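The genes described here are 9 mouse genes of late thymocyte maturation and egress, the last steps by which a new T cell matures in the thymic medulla and leaves for the blood. They are Foxo1, Klf2, S1pr1, Sgpl1, Il7r, Itgb7, Ms4a4b, Dapl1 and Cd52, out of 19938 genes measured. They were taken as a named set of symbols, and each is represented by its only single-gene probe set, the group of array probes that reads out a single gene. RNA came from thymus lobes of C57BL/6NTac mice, an inbred strain, with a single Affymetrix array per mouse. The 4 mice of the spaceflight group were 8 weeks old and spent 13 days on a shuttle mission, and the 4 ground-control mice, matched in age and sex, lived in the same type of animal enclosure module. The labels name no transgene and no drug. The sources used here give neither the sex of the mice nor the time between landing and dissection. The values are log2 expression, so that a difference of 1 is a doubling, and every difference is spaceflight minus ground control.

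Thymocytes that survive selection switch on a program for leaving. The transcription factor Foxo1 acts upstream of Klf2, and Klf2 in turn activates S1pr1, the receptor with which mature thymocytes sense sphingosine-1-phosphate (S1P). S1P is plentiful in blood and kept scarce in the tissue, partly by the S1P lyase that Sgpl1 encodes, and the cells leave along this gradient. Il7r encodes the receptor chain for the survival cytokine IL-7, which is low at the double-positive stage and regained by single-positive cells. Itgb7 encodes an integrin subunit of mucosal homing, while Ms4a4b, Dapl1 and Cd52 are transcripts that accumulate in maturing or naive T cells.

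Upstream sequence is shown as a description. Most members varied together over all 8 arrays, but much less without spaceflight replicates 1 and 3 (median r over the 36 pairs 0.63 and 0.21). Whether they share regulation was not tested. A RefSeq window of 300 bases around a transcript start (GRCm38.p6) was available for 7 of the 9 genes. No window was available for S1pr1 or Cd52, so nothing is known here of matches in these genes. That start was the outer end of the gene for 5 of them, but lay 1470 bases inside it for Itgb7 and 65 bases inside it for Il7r. In these windows 2 short cores were searched on both strands: CACCC, read by Klf factors, and GTAAACA, read by Foxo factors. CACCC was present in 3 of the 7 windows, those of Klf2 (1 match), Itgb7 (4 matches) and Ms4a4b (2 matches), against 57.5% of all windows. GTAAACA was present in 1 of the 7, that of Dapl1, against 3.65% of all windows. The 250 bases upstream of the gene start are shown for Ms4a4b (chr19:11443308-11443557, plus strand) and Dapl1 (chr2:59484403-59484652, plus strand), a pair whose levels had r = 0.80 over all 8 arrays and r = 0.17 without spaceflight replicates 1 and 3. They are also shown for Sgpl1 (chr10:61147685-61147934, minus strand), the gene with the smallest p of the 9. Each runs 5′ to 3′ on the gene's strand, and capitals mark either core.
Ms4a4b: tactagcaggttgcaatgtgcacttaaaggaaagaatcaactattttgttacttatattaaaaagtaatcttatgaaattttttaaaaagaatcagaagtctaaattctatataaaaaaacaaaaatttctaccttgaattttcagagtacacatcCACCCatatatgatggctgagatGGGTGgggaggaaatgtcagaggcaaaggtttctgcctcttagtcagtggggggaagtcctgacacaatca
Dapl1: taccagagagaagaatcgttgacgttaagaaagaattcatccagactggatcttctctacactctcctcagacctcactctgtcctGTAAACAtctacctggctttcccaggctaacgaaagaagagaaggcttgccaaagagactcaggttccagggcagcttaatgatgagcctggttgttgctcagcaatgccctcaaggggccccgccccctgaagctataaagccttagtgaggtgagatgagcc
Sgpl1: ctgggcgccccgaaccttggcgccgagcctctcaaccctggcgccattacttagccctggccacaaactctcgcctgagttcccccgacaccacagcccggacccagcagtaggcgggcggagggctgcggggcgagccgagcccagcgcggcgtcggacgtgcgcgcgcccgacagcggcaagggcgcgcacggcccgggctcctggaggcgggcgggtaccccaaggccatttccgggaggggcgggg
The Ms4a4b stretch holds CACCC once on each strand, the Dapl1 stretch holds GTAAACA once and no CACCC, and the GC-rich Sgpl1 window (75.3% G and C, against a median of 52.7% over all windows) holds neither. These matches are letters in a window and do not show binding.

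Before the members, the arrays themselves differed. Spaceflight replicates 1 and 3 had interquartile ranges of 2.22 in both, against 2.55 to 2.84 in the other 6 arrays, and over all genes they correlated with other arrays at 0.956 to 0.986. With genes split by mean level into 4 equal classes, the brightest class had a median difference of -0.13 and the dimmest 0.10. Without these 2 arrays the medians of both classes lay between -0.02 and 0.00. The differences of the members and of the other genes named are therefore given with and without them. The thymus label was borne out by markers of double-positive thymocytes (11 of 12 measured). Rag1, Dntt and Cd8a were among the brightest genes (percentiles 99.96, 99.6 and 99.8 of mean level). The other markers of this list ran from percentile 55.6 (Ptcra) and 78.3 (Cd1d1) to 99.8 (Cd8b1). RNA was taken from whole lobes, so fewer cells of a type and less RNA per cell cannot be told apart.

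No member passed at a limma adjusted p under 0.05, where 0.0802% of all genes did (16 of 19938). At an unadjusted p under 0.05, 1 of 9 passed, Sgpl1, against 10.8% of all genes. The mean was lower in spaceflight for 8 of 9 members, all but Il7r, against 53.5% of all genes. The median difference over the 9 was -0.21, beside -0.02 over all genes and -0.15 to -0.10 over the 1000 genes nearest in mean level to each member. Without spaceflight replicates 1 and 3 the members' median was -0.01, 5 of 9 had a lower mean, and again none passed (0.0802% of all genes did). At an unadjusted p under 0.05, Sgpl1 and Il7r then passed, 2 of 9, against 7.46% of all genes.

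**Figure D1:**
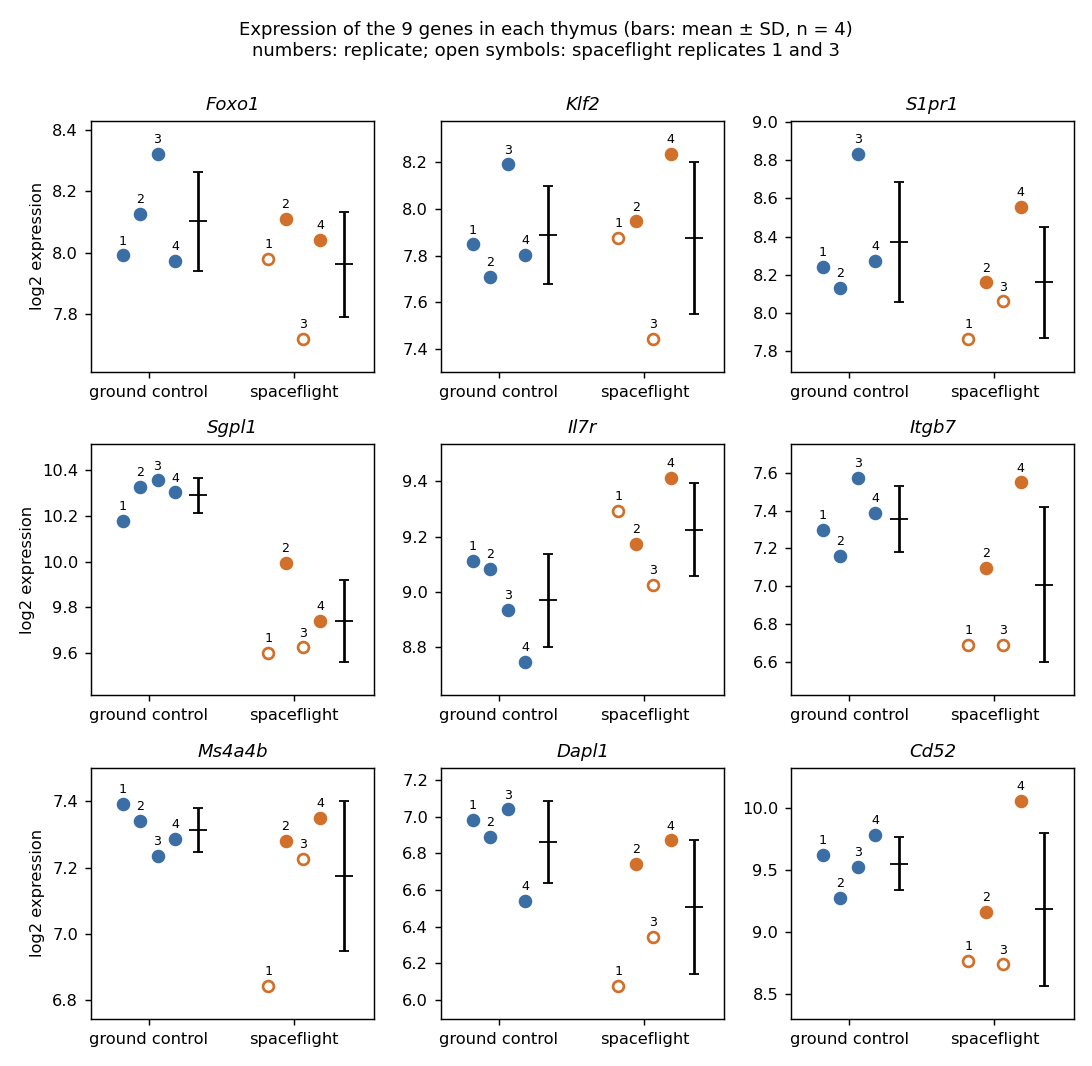
Log2 expression of each of the 9 genes (vertical axes) in the 4 ground-control and 4 spaceflight arrays; points are single mice numbered by replicate, open symbols are spaceflight replicates 1 and 3, and bars are mean ± SD. The groups are separate for Sgpl1 alone. In Itgb7 and Cd52 spaceflight replicates 1, 2 and 3 lie below every control, while replicate 4 lies within the control range for Itgb7 and above it for Cd52.

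Of the transcriptional regulators, neither stood apart from the controls. Foxo1 (chr3:52268337-52350109), which keeps naive T cells quiescent and drives their homing genes, read 7.98, 8.11, 7.72 and 8.04 in spaceflight replicates 1 to 4 and 7.99, 8.13, 8.32 and 7.97 in ground-control replicates 1 to 4. The groups overlapped, with spaceflight replicate 3 below every control and ground-control replicate 3 the highest array. Its difference was -0.14 ± 0.13 (SE; limma adjusted p = 0.644), close to the -0.14 median of genes of like level, and it was -0.03 without spaceflight replicates 1 and 3. Klf2 (chr8:72319062-72321654), the zinc finger factor of T cell quiescence and egress, read 7.87, 7.95, 7.45 and 8.23 in spaceflight and 7.85, 7.71, 8.19 and 7.80 in ground control. The spaceflight mice included both the lowest and the highest array of the 8. The means were 7.87 ± 0.33 and 7.89 ± 0.21 (SD, n = 4 each), a difference of -0.01 ± 0.17 (limma adjusted p = 0.978) with a 95% interval from -0.37 to 0.35. Its sign was not stable: without spaceflight replicates 1 and 3 it was 0.20 ± 0.15 (limma adjusted p = 0.854), and it was 0.07 after centring arrays on the 75th percentile and after repeated quantile normalization.

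S1pr1 (chr3:115710433-115715055), the receptor itself, read 7.87, 8.16, 8.06 and 8.56 in spaceflight and 8.24, 8.13, 8.83 and 8.27 in ground control. Spaceflight replicates 1 and 3 lay below every control, replicates 2 and 4 lay within the control range, and ground-control replicate 3 was the highest. The means were 8.16 ± 0.29 and 8.37 ± 0.31, a difference of -0.21 ± 0.18 (limma adjusted p = 0.630) with a 95% interval from -0.60 to 0.18. Without spaceflight replicates 1 and 3 it was -0.01 ± 0.20. Endothelial cells also use S1pr1, and the mean level of 9 endothelial markers (9 of 9 measured) was 6.33 to 6.78 in spaceflight and 6.59 to 7.35 in ground control. It was highest in ground-control replicate 3, the array of highest S1pr1, and lowest in spaceflight replicate 1, that of lowest S1pr1. The part of endothelium in the S1pr1 values was not tested.

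Sgpl1 (chr10:61098642-61147684), the lyase that breaks down S1P irreversibly, was the member that differed most. It read 9.60, 9.99, 9.63 and 9.74 in spaceflight and 10.18, 10.32, 10.35 and 10.30 in ground control. All 4 spaceflight arrays lay below all 4 controls, which 4.28% of all genes also did in this direction. The means were 9.74 ± 0.18 and 10.29 ± 0.08, a difference of -0.55 ± 0.12 or 1.46-fold, with a 95% interval from -0.80 to -0.29. It did not pass over all genes (limma adjusted p = 0.130; unadjusted p = 0.000524), and an exact two-sided permutation test gave p = 0.0286, the smallest that 4 against 4 arrays allow. Relative to genes of like level the difference was -0.43. It kept its sign without spaceflight replicates 1 and 3, at -0.42 ± 0.12 (limma adjusted p = 0.393). Of the cell type marker lists, 3 also had lower mean levels in spaceflight without overlap of the groups, that of dendritic cells by a narrow margin. These 3 are given because they separated, and the groups overlapped for every other cell type list. For example, muscle markers were at 6.16 to 8.04 in spaceflight and 7.50 to 8.36 in ground control. NK and innate lymphoid markers were at 5.33 to 5.59 and 5.33 to 5.40. The mean level of 8 thymic epithelial markers (8 of 8 measured) was 7.88 to 8.28 in spaceflight and 8.43 to 8.58 in ground control. Their median difference was -0.53, and -0.19 without spaceflight replicates 1 and 3. The mean level of 7 fat cell markers (7 of 8 measured) was 7.35 to 8.31 against 8.37 to 8.88, with a median difference of -0.62, and of -0.42 without spaceflight replicates 1 and 3. That of 8 dendritic cell markers (8 of 8 measured) was 6.443 to 6.567 against 6.574 to 6.686. Of these markers 6 were lower and 2 higher, with a median difference of -0.07, and of -0.10 without the 2 arrays. The part of these cells in the Sgpl1 values was not tested.

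**Figure D2:**
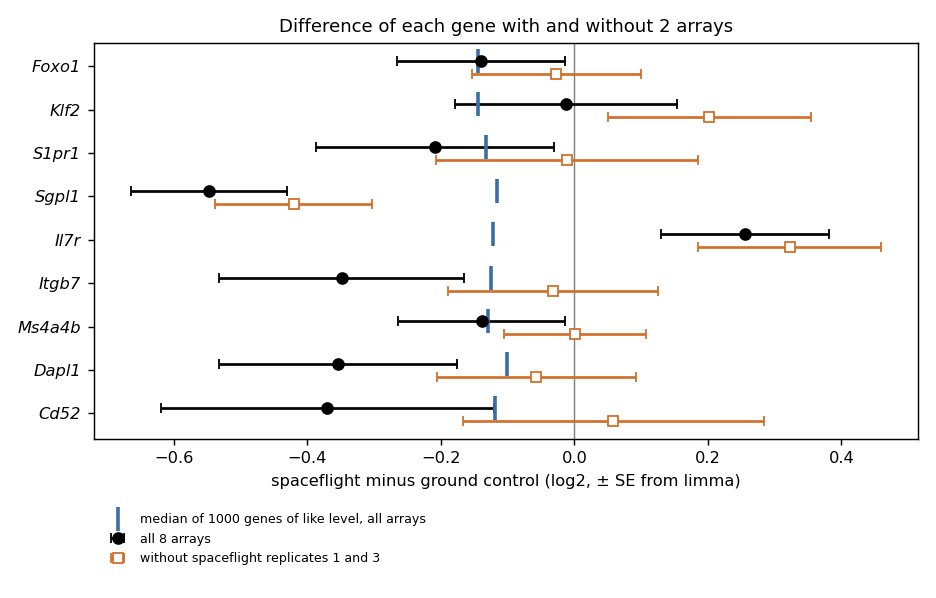
Difference between spaceflight and ground control for each gene on the log2 scale (horizontal axis), with limma SE, for all 8 arrays (filled circles) and without spaceflight replicates 1 and 3 (open squares); the blue ticks are the median difference of the 1000 genes nearest in mean level. Sgpl1 stays below 0 (-0.55 and -0.42) and Il7r above it (0.26 and 0.32), while the other 7 lie between -0.06 and 0.20 without the 2 arrays.

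Il7r (chr15:9506159-9529941) was the member with a higher mean in spaceflight. It read 9.29, 9.17, 9.02 and 9.41 in spaceflight and 9.11, 9.08, 8.94 and 8.75 in ground control. Spaceflight replicates 1, 2 and 4 lay above every control, and replicate 3 lay within the control range. The means were 9.23 ± 0.17 and 8.97 ± 0.17, a difference of 0.26 ± 0.13 (limma adjusted p = 0.471; exact two-sided permutation p = 0.114). The difference was 0.38 relative to genes of like level, and without spaceflight replicates 1 and 3 it was 0.32 ± 0.14 (limma adjusted p = 0.650). Il7r is also expressed by double-negative thymocytes, where a list of 8 markers that includes it (8 of 8 measured) had a mean level of 6.89 to 7.29 in spaceflight and 7.18 to 7.33 in ground control. The part of those cells in the Il7r values was not tested.

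Itgb7 (chr15:102215994-102233405), the beta chain of the integrins α4β7 and αEβ7, read 6.69, 7.10, 6.69 and 7.55 in spaceflight and 7.30, 7.16, 7.58 and 7.39 in ground control. Spaceflight replicates 1, 2 and 3 lay below every control, and replicate 4 lay within the control range. The difference was -0.35 ± 0.18 (limma adjusted p = 0.489), and -0.03 ± 0.16 without spaceflight replicates 1 and 3. Cd52 (chr4:134093538-134095073), a small GPI-anchored surface peptide of lymphocytes and other leukocytes, had the widest spread of the 9. It read 8.77, 9.17, 8.74 and 10.06 in spaceflight and 9.63, 9.28, 9.53 and 9.79 in ground control. The spaceflight group ran from below every control (replicates 1, 2 and 3) to above every control (replicate 4), and its SD was 0.61, against 0.21 in ground control. The difference was -0.37 ± 0.25 (limma adjusted p = 0.555), and 0.06 ± 0.23 without spaceflight replicates 1 and 3.

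Both Itgb7 and Cd52 are carried by leukocytes other than T cells, and marker lists of such cells are set beside them. The mean level of 8 macrophage markers (8 of 8 measured) was 7.54, 8.53, 8.00 and 8.84 in spaceflight replicates 1 to 4 and 8.41 to 8.82 in ground control. Replicates 1 and 3 were thus low and replicate 4 high, as for Cd52. The B cell list did not share the low arrays. The mean level of 8 B cell markers (8 of 9 measured) was 6.46, 6.71, 6.42 and 6.97 in spaceflight replicates 1 to 4 and 6.39 to 6.93 in ground control. It was highest in spaceflight replicate 4 and lowest in ground-control replicate 2. That of 7 NK and innate lymphoid markers (7 of 7 measured) was 5.33, 5.40, 5.36 and 5.59 in spaceflight and 5.33 to 5.40 in ground control. The part of these cells in the Itgb7 and Cd52 values was not tested.

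The remaining members mark maturing T cells. Ms4a4b (chr19:11443558-11463549), a multi-pass membrane protein of T cells that tempers their proliferation, read 6.84, 7.28, 7.23 and 7.35 in spaceflight and 7.39, 7.34, 7.24 and 7.29 in ground control. Spaceflight replicate 1 was low, and all other arrays lay between 7.23 and 7.39. The difference was -0.14 ± 0.13 (limma adjusted p = 0.647), and it was 0.00 without spaceflight replicates 1 and 3. Dapl1 (chr2:59484653-59505020), a transcript of naive and memory-precursor T cells, read 6.08, 6.74, 6.34 and 6.87 in spaceflight and 6.98, 6.89, 7.04 and 6.54 in ground control. Spaceflight replicates 1 and 3 lay below every control and replicates 2 and 4 within their range. The difference was -0.35 ± 0.18 (limma adjusted p = 0.478), and -0.06 ± 0.15 without those 2 arrays.

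**Figure D3:**
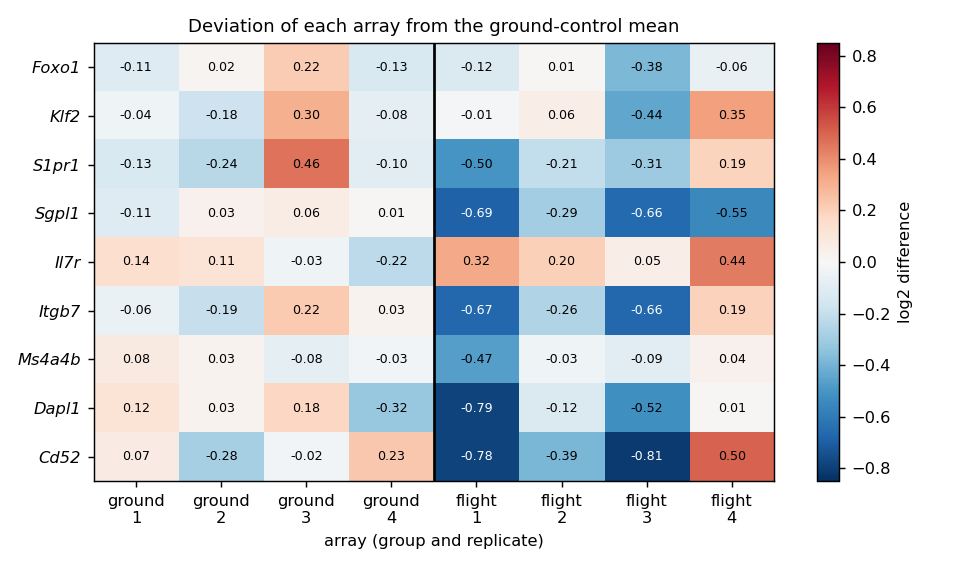
Deviation of each array (columns) from the ground-control mean of each gene (rows), in log2 units written in each cell and coloured from blue (lower) to red (higher). Spaceflight replicates 1 and 3 are below 0 for 8 of 9 genes, and Sgpl1 lies at -0.29 or lower in all 4 spaceflight arrays.

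Seen by array, the low values came mainly from spaceflight replicates 1 and 3. Averaged over the 9 genes, the deviation from the ground-control mean was -0.41 in spaceflight replicate 1, -0.12 in replicate 2, -0.43 in replicate 3 and 0.12 in replicate 4. The controls ran from -0.07 to 0.15, so replicate 4 lay within the control range. Spaceflight replicate 1 was the lowest of the 8 arrays for 5 members and replicate 3 for 3, while ground-control replicate 3 was the highest for 5.

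The members varied together to unequal degrees, given here as Pearson's r over 8 arrays that share the 2 low ones, as a description. Of the 36 pairs, 29 had an r above 0, and the 7 others all involved Il7r. Itgb7 followed Cd52 (r = 0.93; Spearman's rho = 0.83) and S1pr1 (r = 0.87; rho = 0.98), and without spaceflight replicates 1 and 3 these were 0.78 and 0.90. Klf2 and S1pr1 had r = 0.72 (rho = 0.60), and 0.85 without the 2 arrays. Ms4a4b and Dapl1 had r = 0.80 (rho = 0.60), but 0.17 without them. Il7r ran against Sgpl1 (r = -0.64; rho = -0.62), at -0.85 without them, and after subtracting each group's mean over all arrays r was -0.11. The median r over the 36 pairs was 0.63 with all arrays and 0.21 without the 2.

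**Figure D4:**
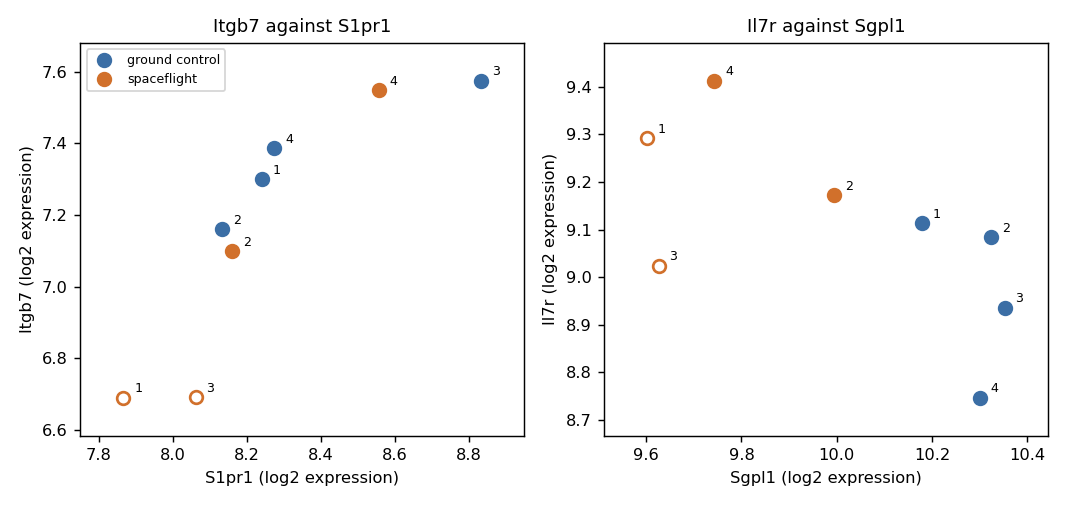
Log2 expression of Itgb7 against S1pr1 (left) and of Il7r against Sgpl1 (right), each point a mouse numbered by replicate, with spaceflight replicates 1 and 3 as open symbols. Itgb7 rises with S1pr1 across both groups (r = 0.87), whereas Il7r runs against Sgpl1 (r = -0.64), with the groups apart in Sgpl1 and overlapping in Il7r.

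Among 9960 other genes above the median of mean level, those most like S1pr1 over the 8 arrays were Cetn4 (r = 0.98), Dkk3 (r = 0.98) and Sav1 (r = 0.98). Those most like Klf2 were Ulk1 (r = 0.98), Zfp358 (r = 0.98) and Dhx58 (r = 0.98). Each stayed at 0.96 to 0.98 without spaceflight replicates 1 and 3. With 8 arrays and this many genes, values of this size describe the arrays.

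The wider pathway was read through 7 lists holding 107 genes, 97 of them measured. None passed at a limma adjusted p under 0.05 in either direction. At an unadjusted p under 0.05, 2 were higher and 12 lower, which is 14 of 97 against 10.8% of all genes. The groups did not overlap for 1 of 14 receptor and egress machinery genes, 2 of 13 homing genes and 2 of 14 other surface genes. The other lists held 0 such genes. All of these genes were lower in spaceflight, and 4.28% of all genes were lower without overlap. The median over the 97 genes was -0.14, near that of bright genes as a whole. Without spaceflight replicates 1 and 3 the median was -0.02, and 7 were higher and 4 lower at an unadjusted p under 0.05, against 7.46% of all genes.

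In the S1P supply list (synthesis, transport and breakdown, 12 of 12 measured, median -0.06) the genes of smallest p were Mfsd2b, the S1P exporter of red cells (0.39 ± 0.18; limma adjusted p = 0.458), and Plpp1, a lipid phosphatase (-0.51 ± 0.26; limma adjusted p = 0.483). With spaceflight replicates 1 and 3 left out they were at 0.12 and -0.12. The kinases that make S1P were at 0.11 ± 0.12 (Sphk1) and -0.04 ± 0.13 (Sphk2), and the endothelial exporter Spns2 at -0.05 ± 0.15. Without the 2 arrays these were -0.03, 0.05 and -0.16, so the signs of both kinases turned. Plpp3, a phosphatase that removes S1P in thymic stroma, was at -0.51 ± 0.28, and at -0.14 without spaceflight replicates 1 and 3. Thus Sgpl1 had a smaller p than any of these 12 genes.

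Among the other receptors and the egress machinery (14 of 16 measured, median -0.15), S1pr3, an S1P receptor of vessels and stroma, was the gene of smallest p. It read 5.59, 6.34, 5.97 and 6.28 in spaceflight and 6.61, 7.04, 6.93 and 6.87 in ground control, without overlap. The difference was -0.81 ± 0.17 (limma adjusted p = 0.118), and -0.55 without spaceflight replicates 1 and 3. S1pr4, another S1P receptor of lymphocytes, was at 0.13 ± 0.16, and at 0.35 ± 0.14 without the 2 arrays (limma adjusted p = 0.608). The receptor S1pr5 moved the other way, from -0.06 ± 0.16 to -0.35 ± 0.13 without the 2 arrays (limma adjusted p = 0.595). S1pr2 was at 0.04 ± 0.12, and at 0.06 ± 0.14 without them. Cd69, which pulls S1pr1 off the cell surface in freshly selected cells, was at -0.21 ± 0.14 (limma adjusted p = 0.558), and Mob1b, an adaptor of the Mst kinases, at -0.33 ± 0.12 (limma adjusted p = 0.376). Without the 2 arrays they were at -0.09 and -0.22.

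Of 17 measured regulators (of 18, median -0.14), Zbtb7b, the factor of CD4 lineage commitment, was at -0.57 ± 0.19 (limma adjusted p = 0.347) and Klf3, a repressor related to Klf2, at -0.39 ± 0.14 (limma adjusted p = 0.393). With spaceflight replicates 1 and 3 left out they were at -0.42 and -0.18. In the Il7r list (13 of 15 measured, median -0.12) the cytokine gene Il7 was at -0.38 ± 0.16 (limma adjusted p = 0.445), and at -0.11 without spaceflight replicates 1 and 3. The feedback inhibitor Cish was at -0.20 ± 0.12 (limma adjusted p = 0.525), and at -0.14 without them. The sign of Il7 was therefore opposite to that of its receptor, and neither passed. Il2rg, the shared chain of the IL-7 receptor, was not analysed here.

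Homing and adhesion partners (13 of 14 measured) had a median of -0.23. Icam1, the ligand of LFA-1, was at -0.50 ± 0.16 (limma adjusted p = 0.326) and Itgal, the LFA-1 alpha chain, at -0.35 ± 0.14 (limma adjusted p = 0.427), and without spaceflight replicates 1 and 3 they were at -0.29 and -0.20. The alpha chains that pair with Itgb7 had values of 0.33 ± 0.15 (Itga4; limma adjusted p = 0.450) and -0.04 ± 0.16 (Itgae), against -0.35 for Itgb7 itself. Without the 2 arrays the values were 0.24, 0.15 and -0.03, so the sign of Itgae turned. Ccr7, the chemokine receptor that brings maturing cells to the medulla, was at -0.31 ± 0.16 (limma adjusted p = 0.487), and at -0.05 without spaceflight replicates 1 and 3.

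Other surface genes of single-positive cells (14 of 18 measured) had a median of -0.19. Cd24a, which is high on immature thymocytes and lost as they mature, read 10.03, 10.22, 10.04 and 10.25 in spaceflight and 10.62, 10.43, 10.36 and 10.39 in ground control, without overlap (difference -0.32 ± 0.11; limma adjusted p = 0.371). Cd44 was at -0.65 ± 0.17 (limma adjusted p = 0.255). Without spaceflight replicates 1 and 3, Cd24a was at -0.22 and Cd44 at -0.42. In the list of Gimap and Ms4a relatives (14 of 14 measured, median -0.16), Gimap4 was at -0.43 ± 0.16 (limma adjusted p = 0.390) and Gimap3 at -0.32 ± 0.16 (limma adjusted p = 0.471), and without the 2 arrays they were at -0.18 and -0.09. Without spaceflight replicates 1 and 3 the medians of the 7 lists lay between -0.06 and 0.03.

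**Figure D5:**
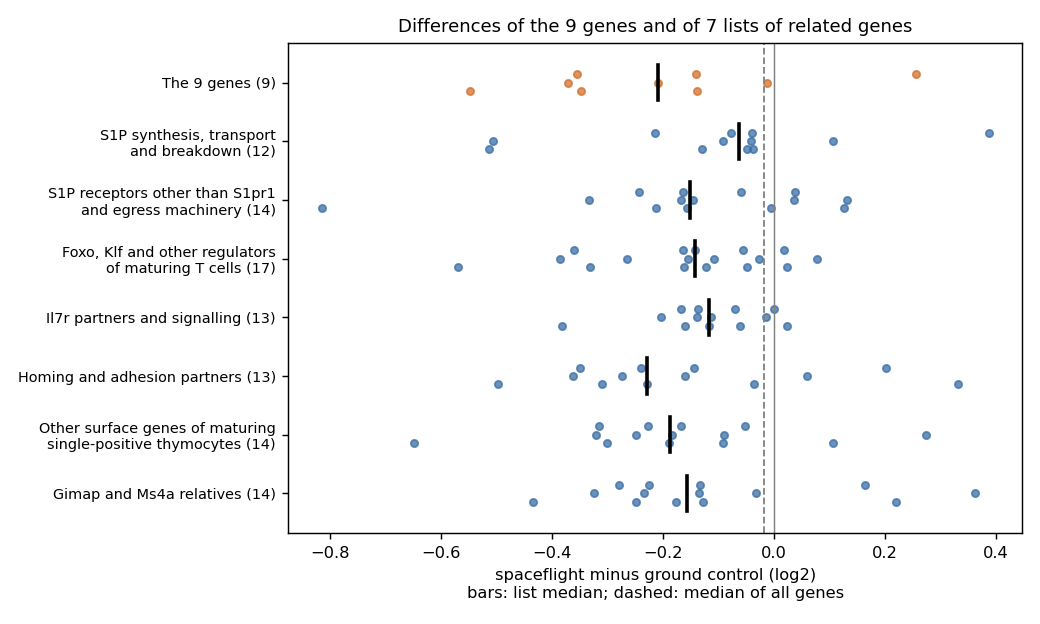
Difference between spaceflight and ground control (horizontal axis, log2) for the 9 genes and for each measured gene of 7 related lists, with the number measured in brackets; black bars are list medians and the dashed line is the median of all genes (-0.02). The list medians lie between -0.23 and -0.06, and S1pr3 (-0.81) is the lowest point.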

How the data were processed

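The deposited values are log2 expression per probe set, and per the submitters' processing notes the authors used RMA and limma. RMA usually includes quantile normalization of probes, which can hide a change shared by most genes. No version, build or filter is given there. Of 35557 probe sets, the lowest unbroken run of identifiers (6614, unannotated) was taken as controls and left out. Of the other 28943, 21789 had a single gene in the platform annotation, with symbols updated through RefSeq GRCm38.p6 (21698 matched). The probe set of highest mean stood for each of 19938 genes. Groups were compared with limma 3.58.1 in R 4.3.3 (lmFit, eBayes, two-sided, Benjamini-Hochberg over all genes). The fit was tried on simulated data with independent values, which hold no effect shared across an array. Exact permutation tests used 70 assignments. Members, lists and motifs were chosen with earlier results of these data known. Named genes were all members, the 2 of smallest p in each list, fixed partners, and the 3 most like S1pr1 and Klf2. S1pr2 and S1pr5 were added beside S1pr4. No 2 arrays held the same values, and their number limits the precision. Same-numbered arrays deviated together (correlation above 0.1) in 1 of 4 pairs, so numbers were not treated as pairs. Alternatives were centring, normalization, array weights, variance prior, a filter on low values, all or averaged probe sets, a replicate block and arrays left out.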

Additional observations from a re-analysis of the deposited data

How the results depend on the processing

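No member was called under any of the 17 alternatives, in which adjusted p-values for Sgpl1 ran from 0.0718 to 0.429 and its difference from -0.63 to -0.42. Il7r stayed above 0 (0.18 to 0.33), and S1pr1, Foxo1, Itgb7 and Dapl1 stayed below 0. The variance prior, the filter, all or averaged probe sets and the replicate block could not change a member's difference. Signs were open to change only under the other alternatives. Klf2 turned to 0.0662 with 75th percentile centring, 0.0655 with repeated quantile normalization, 0.0593 with array weights and 0.20 without spaceflight replicates 1 and 3 together, and ran from -0.13 to 0.13 when single arrays were left out. Without both replicates, Ms4a4b turned to 0.000546 and Cd52 to 0.0584. The median over the members ran from -0.34 to -0.0117. The count of all genes called was 16. It was 23 with a trended, robust variance prior, 23 with the filter on low values (fewer genes tested) and 10 when all probe sets were fitted (more features tested). It ran from 6 to 15 when single arrays were left out: 9 without spaceflight replicate 1, 10 without replicate 3, and 9, 8, 6 and 7 without ground-control replicates 1 to 4. A replicate block gave 20 genes and 0 members. The arrays' number limits what can be called: the 95% interval of S1pr1 alone spans -0.60 to 0.18.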
